A study of Schizosaccharomyces pombe with 127 samples.

Results

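The atg1 and vps15 deletions of fission yeast (Schizosaccharomyces pombe) are described here, each before (0 min) and 60 min after nitrogen was removed from minimal medium. They were chosen by the strain names in the array titles and comprise 4 of 127 arrays, 1 array for each strain and time. The set against which they are compared is 61 other gene deletion strains at 0 min and 60 at 60 min. One wild-type array at each time is given beside them, that of 60 min by its title, since its labels disagree. On each array the RNA of a strain carried Cy5 and a pool of wild-type RNA carried Cy3. Cells were taken from log-phase cultures in minimal medium with nitrogen (0 min) or after transfer to the same medium without it (60 min). The labels do not name mating type, auxotrophic markers or the way the genes were deleted, and each deletion is 1 strain.

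Atg1 is the protein kinase that starts autophagy, the process that wraps cytoplasm in membranes and delivers it to the vacuole for breakdown. Vps15 is the regulatory subunit of the Vps34 phosphatidylinositol 3-kinase, a lipid kinase that serves autophagy and also the sorting of proteins from endosomes to the vacuole. When nitrogen is withdrawn, autophagy is a known source of amino acids for the cell. Both genes therefore belong to one pathway, and Vps15 also acts outside it.

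All levels are log2 ratios of a strain to the wild-type pool, centred on the median of the array. A deviation is the level of a strain minus the mean of the other deletion strains at the same time, in log2 units, so that 1 is a 2-fold difference. A gene is called where limma gave an adjusted p below 0.05 (Benjamini-Hochberg, 4929 genes). At an unadjusted p under 0.05 (limma) all genes together gave 661 in atg1 and 254 in vps15 at 0 min. They gave 453 and 688 at 60 min, and 992 and 408 for the change from 0 to 60 min. With 1 array per strain and time, each strain was assumed to vary as the other strains do, and no deletion has a replicate. The p-values therefore measure the spread between strains. In the fit of the 2 strains together (the pair), 2 different deletions with 1 array each stand in as replicates of 1 group. The SE and p-values of that fit therefore do not measure replicates of 1 genotype. The comparisons of atg1 and of vps15 share the arrays of the other strains. At 0 min the 2 arrays were among the wider ones, with an SD over genes of 0.503 in atg1 (the third widest) and 0.438 in vps15, against 0.223 to 0.825 and a median of 0.343 in the other strains. With quantile normalization, which gives all arrays of a time the same spread, 2 of the 44 genes called at 0 min in atg1 remained called and 3 of the 16 in vps15. At 60 min their SDs of 0.945 and 0.965 lay within the range of the other strains (0.684 to 1.21).

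The deleted genes were examined first. In the atg1 strain, atg1 stood at -2.23 at 0 min and -0.73 at 60 min, while the other strains ranged from -0.48 to 0.20 at 0 min and from 1.04 to 2.50 at 60 min. Both levels lay below every other strain, with deviations of -2.12 (adjusted p = 6.99e-16) and -2.54 (adjusted p = 7.11e-08). In the vps15 strain, vps15 stood at -1.74 and -0.94, against -0.52 to 0.47 and -0.05 to 1.07 in the other strains. Its deviations were -1.68 (adjusted p = 6.93e-07) and -1.33 (adjusted p = 3.79e-05). The 2 probes of vps15 disagreed, with deviations of -3.51 and 0.14 at 0 min and -3.29 and 0.63 at 60 min, so 1 of them does not report the deletion. Transcript of vps15 in the atg1 strain deviated by 0.67 at 0 min (adjusted p = 0.127) and 0.75 at 60 min (adjusted p = 0.0511). In the vps15 strain atg1 transcript was near the others, with deviations of 0.09 and 0.12 that were not called, and it stood at 1.93 at 60 min, against a median of 1.83 in the other strains.

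After 60 min without nitrogen the 2 strains shared a group of genes that were higher than in the other strains. In atg1 60 genes were called (1.22% of all tested), 57 of them higher (1.16%). In vps15 106 genes were called (2.15%), 82 of them higher. The shared genes numbered 23, all higher, which is 38.3% of the atg1 list and 21.7% of the vps15 list, and none was called in opposite directions. In 21 of the 23 both strains lay above every other deletion strain, the exceptions being eca39 and lys1, and the choice of the genes favours this order. None of the 23 was called at 0 min in either strain, where their median deviation was -0.00 in atg1 and 0.28 in vps15, against 1.44 and 1.54 at 60 min. Among them ilv5 lay at least 2-fold above the others in atg1 at 0 min too (deviation 1.05). It was also called higher at 0 min for the mean of the 2 strains, a call lost with quantile normalization. In the other strains 11 of the 23 fell at least 2-fold during starvation and none rose as much. Of the other deletion strains wis4 (median deviation 0.73 over the 23 genes, 7 of them at least 2-fold higher) and ppk18 (0.49, 6 genes) came next, against 20 genes in atg1 and 18 in vps15, whose lead over these genes is fixed by the way the genes were chosen. The strain that stood highest among the others was wis4 for 10 of the genes and ppk18 for 5.

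**Figure D1:**
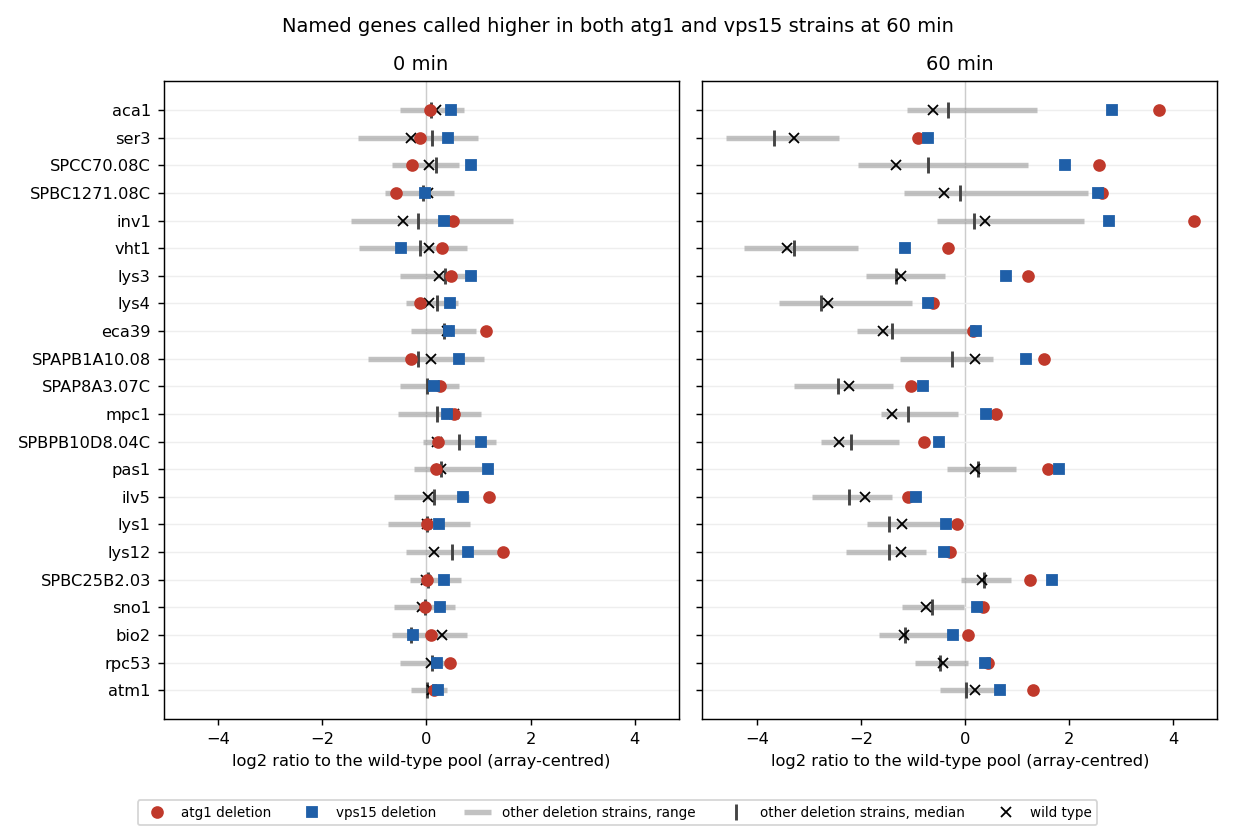
Log2 ratio to the wild-type pool at 0 min (left) and 60 min (right) for the 22 named genes called higher in both strains at 60 min. Red circles are the atg1 strain, blue squares the vps15 strain, grey bars the range and ticks the median of the other deletion strains, and crosses the wild type. The markers of both strains lie mostly among the others at 0 min and right of nearly every grey bar at 60 min.

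Of the 23 shared genes 7 make amino acids. For lys3, saccharopine dehydrogenase of the lysine pathway, the levels at 60 min were 1.21 in atg1 and 0.78 in vps15. The other strains had a lowest level of -1.91, a median of -1.34 and a highest of -0.39, and the wild type stood at -1.23. Both strains lay above every other strain and above 0, with deviations of 2.53 (adjusted p = 3.69e-09) and 2.10 (adjusted p = 1.6e-06). At 0 min lys3 stood at 0.47 and 0.85, within the range of the others. For lys4, homocitrate synthase at the head of the same pathway, the levels at 60 min were -0.62 and -0.72, against -3.58, -2.78 and -1.02 (lowest, median and highest) in the other strains and -2.64 in the wild type. The deviations of lys4 were 2.07 (adjusted p = 0.00159) and 1.97 (adjusted p = 0.00448). The aminoadipate-semialdehyde dehydrogenase gene lys1 and the homoisocitrate dehydrogenase gene lys12 were called in both strains as well, with deviations of 1.28 and 1.08 for lys1 and of 1.17 and 1.06 for lys12. Thus 4 genes of lysine synthesis were higher in both strains, while lys2, lys7 and lys9 were called in neither at 60 min. For lys1 the ppk18 strain (-0.33) lay between the 2 strains.

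The largest deviation among these 7 genes was that of ser3, phosphoglycerate dehydrogenase of the serine pathway. Its levels at 60 min were -0.92 in atg1 and -0.72 in vps15, against -4.60, -3.68 and -2.42 in the other strains and -3.28 in the wild type. All other strains thus had at least 2-fold less, and the deviations were 2.75 (adjusted p = 0.000157) and 2.95 (adjusted p = 7.97e-05). At 0 min ser3 stood at -0.12 and 0.42, against a median of 0.10. For the branched-chain aminotransferase gene eca39 the levels at 60 min were 0.16 and 0.21, against -2.08, -1.40 and 0.21 in the others, where wis4 was the highest. The ilv5 gene, acetohydroxyacid reductoisomerase, deviated by 1.13 in atg1 and 1.28 in vps15.

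Over the amino acid synthesis list of 45 measured genes, 13 were called higher at 60 min in atg1 (28.9% of the list, 1.16% of all genes) and 10 in vps15 (22.2%, 1.66% of all genes), and 0 were called lower. For the 2 strains together, their mean set against the others, 148 genes were called (3.0%), 126 of them higher (2.56%), and the list held 19 of these. The 19 covered lysine (lys1, lys3, lys4, lys12), branched-chain amino acids (ilv1, ilv3, ilv5, ilv6, leu1, eca39), arginine (arg4, arg5), tryptophan (trp1, trp2), histidine (his4), methionine and threonine (hom2, hom3, met26) and serine (ser3). The median deviation over the list was 0.52 in atg1 and 0.51 in vps15, against 0.00 and 0.02 over all genes. The other strains had list medians of -0.43 to 0.53, with an SD of 0.15, and the highest was wis4, so the pair held ranks 2 and 3 of 62. At 0 min the list medians were 0.18 and 0.18, and 1 gene was called in a single strain, lys7, lower in atg1. For the 2 strains together ilv5 was called higher at 0 min (2.22% of the list, 0.933% of all genes), a call lost with quantile normalization. In the same fit at 0 min, without that normalization, arg7 was called lower (2.22% of the list, 0.609% of all genes). Some members stood apart in 1 strain: his4 was called in atg1 (deviation 1.72, adjusted p = 1.18e-07) and not in vps15 (0.72, adjusted p = 0.0682), but the difference between the 2 strains was not called (adjusted p = 0.425). Over 7 genes often used as auxotrophic markers in this yeast, lys1 and leu1 among them, the medians at 60 min were 0.52 and 0.43 (others -0.39 to 0.44) and lys1 was called in both strains. Of these markers arg3, his3, his7, leu1 and lys1 are also on the amino acid synthesis list, so the medians of the 2 lists are not independent. The part of the strains' markers in the amino acid result was not tested.

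**Figure D2:**
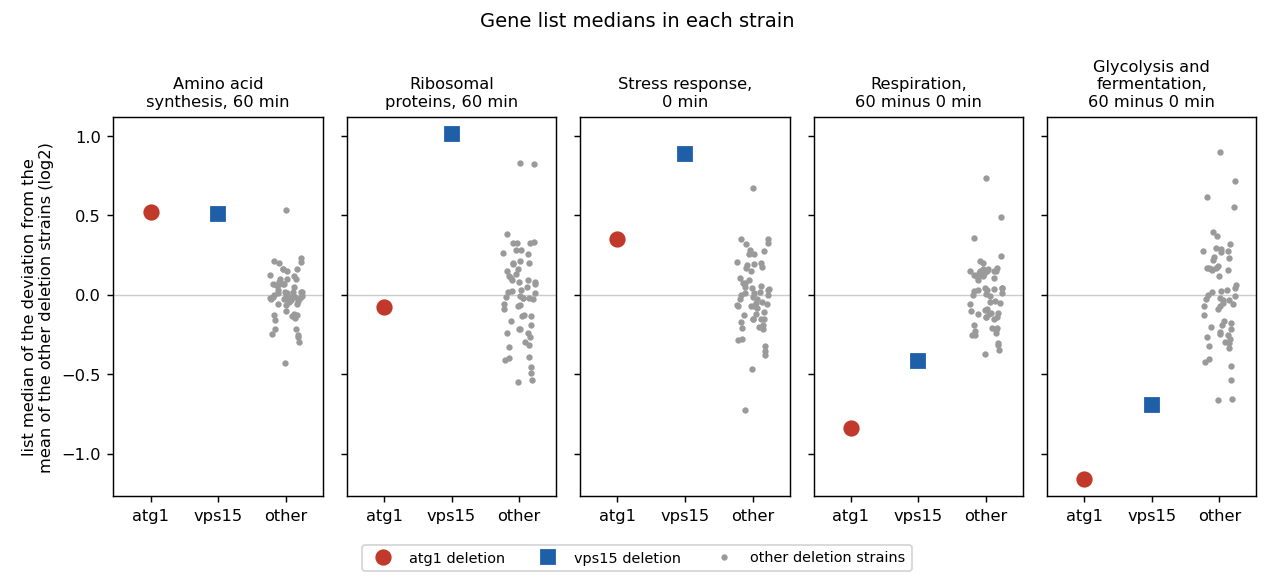
Median deviation from the mean of the other deletion strains (log2) over 5 gene lists, for the atg1 strain (red circle), the vps15 strain (blue square) and each other deletion strain (grey points, spread sideways). Both strains stand near 0.5 for amino acid synthesis at 60 min with 1 other strain, vps15 alone is near 1 for ribosomal proteins, and both lie below all others for the change of respiration and glycolysis.

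Of the other 16 shared genes inv1 alone is on a list used here. For vht1, the biotin transporter, the levels at 60 min were -0.32 in atg1 and -1.16 in vps15, against -4.25, -3.29 and -2.06 in the other strains and -3.42 in the wild type. The deviations were 2.95 (adjusted p = 1.21e-06) and 2.11 (adjusted p = 0.00212), and at 0 min vht1 lay among the others at 0.31 and -0.50. The biotin synthase gene bio2 deviated by 1.18 and 0.89, and sno1, of vitamin B6 synthesis, by 1.02 and 0.89. The mitochondrial ABC transporter gene atm1 deviated by 1.27 and 0.65, the mitochondrial pyruvate carrier gene mpc1 by 1.63 and 1.44, the cyclin gene pas1 by 1.33 and 1.54, and the RNA polymerase III subunit gene rpc53 by 0.92 and 0.87. All of these were called in both strains. With quantile normalization the call was lost for lys12 and ilv5 in atg1 and for atm1 in vps15.

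The largest mean deviations among the 23 were those of inv1, the secreted invertase that splits sucrose, and aca1, an acetyltransferase of azetidine-2-carboxylic acid, which is a proline analogue. The level of inv1 at 60 min was 4.40 in atg1 and 2.75 in vps15, against -0.55, 0.17 and 2.27 in the other strains and 0.37 in the wild type. Its deviations were 4.11 (adjusted p = 3.84e-08) and 2.47 (adjusted p = 0.00331). The level of aca1 was 3.73 and 2.82, against -1.11, -0.33 and 1.37 in the others and -0.62 in the wild type, with deviations of 4.005 (adjusted p = 1.1e-08) and 3.10 (adjusted p = 2.61e-05). In both genes the 2 strains lay above every other deletion strain. Over a list of 6 genes of glucose repression, inv1 and the repressor gene scr1 among them, the median deviation at 60 min was 0.40 in atg1 and 0.67 in vps15. The highest other strain was cyr1 at 1.58. The unnamed gene SPCC70.08C showed the same order, with 2.56 and 1.91 against -2.06, -0.71 and 1.21. The retrotransposon gene Tf2-11 stood at 3.98 and 2.73, against -1.64, 0.16 and 3.13 (wis4) in the others. It was called in atg1 (deviation 3.74, adjusted p = 0.00445) and not in vps15 (2.49, adjusted p = 0.0912), and its near-identical copies make the signal uncertain for any single copy.

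Autophagy and vacuole genes were examined next, since both deleted genes act there. Over 32 genes of the autophagy machinery no gene was called by limma at 0 or 60 min in either strain. Of all genes 0.893% in atg1 and 0.325% in vps15 were called at 0 min, and 1.22% and 2.15% at 60 min. No call among 32 genes is near those shares. At an unadjusted p under 0.05 the list held 6 genes in atg1 and 4 in vps15 at 0 min, and 1 and 3 at 60 min. Over all 4929 genes these numbers were 661 and 254 at 0 min, and 453 and 688 at 60 min. The median deviation at 60 min was -0.19 in atg1 and 0.13 in vps15, inside the -0.44 to 0.40 of the other strains. Over 31 genes of the phosphatidylinositol 3-kinase and endosome-to-vacuole transport list the medians at 60 min were 0.05 and 0.04, and over 16 ESCRT genes, which sort membrane proteins into the vacuole, they were 0.05 and -0.08. The 9 vacuolar hydrolase genes had medians of -0.08 and 0.07, and the 13 genes of the vacuolar proton pump had medians of -0.27 and -0.22. No gene of these 4 lists was called by limma at 60 min in either strain, and at an unadjusted p under 0.05 the lists held between 0 and 4 genes. For the starvation change the proton pump list had a median of -0.50 in atg1, the lowest of 62 strains, and -0.23 in vps15. One of its genes, vma3, was called there (lower, 2.7% of all genes), with a deviation of -1.26 in atg1 (adjusted p = 0.00484), which was lost with quantile normalization. Also called for the change in atg1 were atg44 of the autophagy list, which was lower (-0.86, adjusted p = 0.0498), and vps41, a subunit of the HOPS tethering complex at the vacuole, which was higher (0.72, adjusted p = 0.0332). Both were lost with quantile normalization. For the 2 strains together atg44 (-0.65) and the sorting nexin gene snx3 (0.95, adjusted p = 0.0353) were called.

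Before starvation 4 transporter genes for nitrogen sources were lower in vps15. In all 44 genes were called at 0 min in atg1 (0.893%) and 16 in vps15 (0.325%), and 1 was shared, mmf2, which was lower in both. Its levels at 0 min were -1.21 and -1.43, against -1.08, 0.16 and 1.19 in the other strains and 0.81 in the wild type. The deviations of mmf2 were -1.34 (adjusted p = 0.0358) and -1.56 (adjusted p = 0.0185), and neither was called with quantile normalization. For the 2 strains together 76 genes were called at 0 min (1.54%), 46 higher and 30 lower. With quantile normalization 3 were.

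The proline permease gene put4 stood at -1.03 in atg1 and -2.44 in vps15 at 0 min, against -0.77, 0.11 and 1.06 in the other strains and 0.45 in the wild type. Both levels lay below every other strain. The deviation was called in vps15 (-2.54, adjusted p = 4.95e-05), also with quantile normalization (-2.04), and not in atg1 (-1.13, adjusted p = 0.15). The amino acid permease gene isp5 stood at -1.44 and -2.82, against -2.36, 0.05 and 1.15. It was called in vps15 (-2.77, adjusted p = 0.0354), a call that was lost with quantile normalization. The ammonium transporter gene amt1 was lower in vps15 (-1.63, deviation -1.78, adjusted p = 0.00261) than in any other strain and stood at 0.14 in atg1, against a median of 0.09. With quantile normalization amt1 was called in vps15 too. The difference between the 2 strains in amt1 was not called (adjusted p = 0.19). The permease gene per1 was called in vps15 as well (-1.59, adjusted p = 0.0358), though not with quantile normalization. The oligopeptide transporter gene isp4 stood at -2.54 and -2.63, against -3.32, 0.33 and 2.05, and was called for the 2 strains together only (-2.74 ± 0.77 SE, adjusted p = 0.0467), a call also lost with quantile normalization.

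At 60 min the same transporters lay within the range of the other strains. The level of put4 was 2.84 in atg1 and 3.21 in vps15, against a median of 2.88, that of isp5 was 3.69 and 4.20, against 3.77, and that of amt1 was 2.05 and 1.99, against 1.77. The level of isp4 was 2.87 and 2.11, against 0.63, 3.77 and 4.64 in the others, and that of per1 was 0.46 and 1.02, against 0.06, 1.80 and 2.70, both in the lower part of the range and not called. The starvation change of put4 was 5.65 in vps15, against a highest of 3.89 in the other strains (deviation 2.88, adjusted p = 4.57e-05), and that of isp5 was 7.02, against a highest of 5.76 (deviation 3.26, adjusted p = 0.0237, lost with quantile normalization). The change of mmf2 was 6.07 in atg1 and 6.56 in vps15, against 2.70, 4.04 and 5.20 in the others, and was called in both strains (adjusted p = 0.00368 and 0.000962). Of the 26 measured genes of the nitrogen uptake and use list, 1 was called lower in atg1 at 0 min (urg2, lost with quantile normalization) and 4 in vps15 (put4, isp5, amt1, per1), 15.4% of the list against 0.162% of all genes. The median deviation was 0.03 in atg1 and -0.15 in vps15, against 0.01 and 0.02 over all genes.

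**Figure D3:**
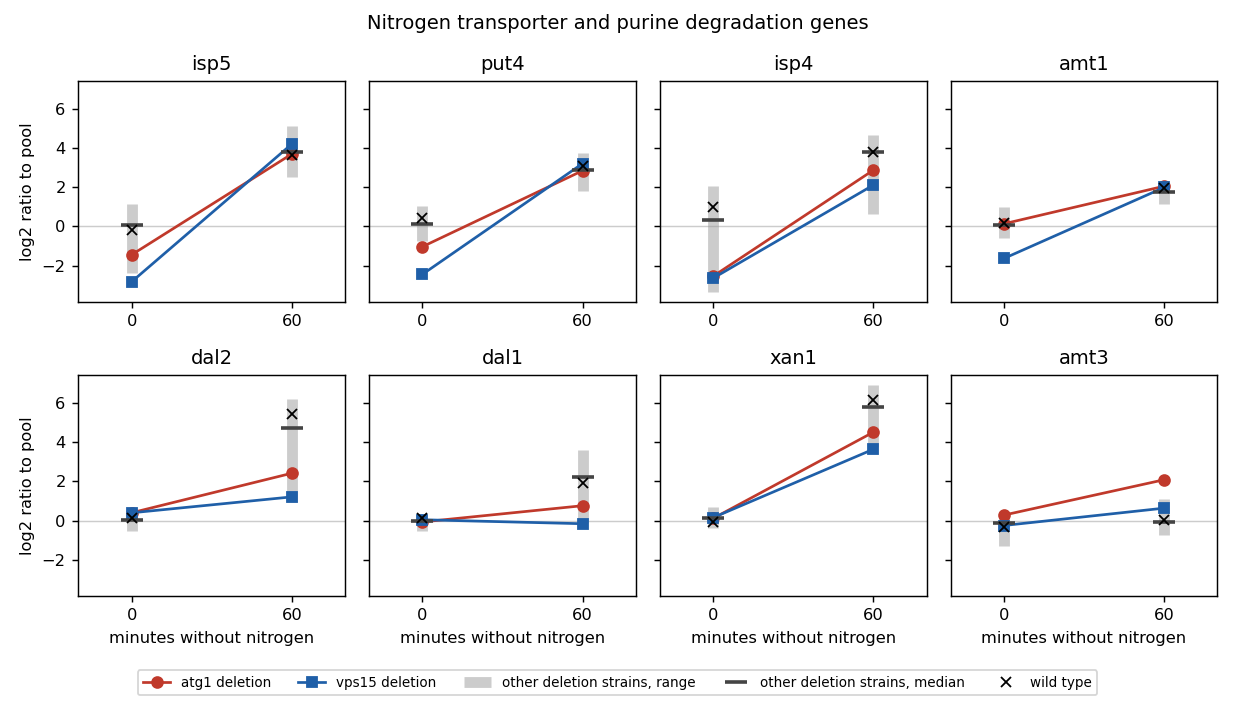
Log2 ratio to the wild-type pool at 0 and 60 min for 5 transporter genes (isp5, put4, isp4, amt1, amt3) and 3 purine degradation genes (dal2, dal1, xan1). Lines join the 2 times of the atg1 strain (red) and the vps15 strain (blue), grey bars are the range and dashes the median of the other deletion strains, and crosses the wild type. The first 3 transporters start low in both strains and end within the range of the others, and the purine degradation genes start among the others and end at or below the lower part of their range.

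Some genes that break down purines, a source of nitrogen, were lower at 60 min in the 2 strains together. The allantoicase gene dal2 stood at 2.41 in atg1 and 1.21 in vps15, against 0.94, 4.74 and 6.18 in the other strains and 5.43 in the wild type. It was called in vps15 (deviation -3.33, adjusted p = 0.0339) and for the 2 strains together (-2.72 ± 0.65 SE, adjusted p = 0.00623), and not in atg1 (-2.12, adjusted p = 0.427). The allantoinase gene dal1 stood at 0.76 and -0.16, against -0.12, 2.21 and 3.58, and the xanthine dioxygenase gene xan1 at 4.50 and 3.63, against 3.73, 5.77 and 6.90. Both were called for the 2 strains together (dal1 -1.78 ± 0.52 SE, adjusted p = 0.0423, and xan1 -1.57 ± 0.42 SE, adjusted p = 0.02). Of 9 genes of purine degradation and urea use, a list made after these values were seen, 4 were called lower for the 2 strains together (0.446% of all genes). In atg1 0 were called and in vps15 1, and 3 of the 9 lay above the others' mean for the 2 strains together. The list medians were -0.83 and -0.89, and cyr1 was the lowest other strain at -1.02. At 0 min none of the 9 was called by limma, and at an unadjusted p under 0.05 there were 3 in atg1 and 2 in vps15.

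On the nitrogen list at 60 min 1 of 26 genes was called higher in atg1 (amt3) and 0 in vps15, and the list medians were -0.03 and 0.19. The ammonium transporter gene amt3 stood at 2.08 in atg1, above every other strain, and at 0.63 in vps15, against -0.71, -0.10 and 1.08. It was called in atg1 (deviation 2.15, adjusted p = 4.2e-06), while the difference between the 2 strains was not (adjusted p = 0.425). The ammonium transporter gene amt2 and gdh1, glutamate dehydrogenase, were called higher only for the 2 strains together, by 0.78 ± 0.21 (SE, adjusted p = 0.0187) and 1.05 ± 0.29 (SE, adjusted p = 0.021).

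Ribosomal protein genes were higher at 60 min in vps15. Of 124 measured genes 27 were called higher (21.8% of the list, 1.66% of all genes) and the median deviation was 1.01, the highest of 62 strains. In atg1 the median was -0.07 and 1 gene was called. In the other strains the medians ran from -0.55 to 0.83. The next highest, ppk22 and cdk11, are strains whose label is in doubt, since their deleted gene was the lowest of all strains at 0 min but not at 60 min. All 124 genes lay above the others' mean in vps15, against 47 in atg1, yet no gene of the list was called by limma for the difference between the 2 strains, where 75 had an unadjusted p under 0.05. The median level over the list at 60 min was -2.50 in atg1 and -1.46 in vps15, against -2.50 in the other strains. Both strains were raised at 0 min already, with median deviations of 0.34 in atg1 and 0.33 in vps15 (ranks 5 and 6 of 63, others -0.83 to 0.44). There 104 of the 124 genes in atg1 and 115 in vps15 lay above the others' mean. The median deviation of the change was -0.40 in atg1 (rank 60 of 62) and 0.66 in vps15 (rank 5). As an example, rpl1602 stood at -2.72 in atg1 and -1.23 in vps15, against -3.58, -2.69 and -1.84 in the other strains, with a deviation of 1.48 in vps15 (adjusted p = 0.0339). With quantile normalization the vps15 median was 0.62 and 39 genes were called. Without the strains of doubtful label 64 were called (median 1.03), and against the 33 strains of near array numbers 12 were (median 0.98). Leaving out ppk22 and cdk11 narrows the spread between the other strains that the p-values use, so the 64 calls are no separate check. Ribosomal protein genes of fission yeast occur in near-identical copies, so their calls are not independent and some copies cannot be told apart.

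**Figure D4:**
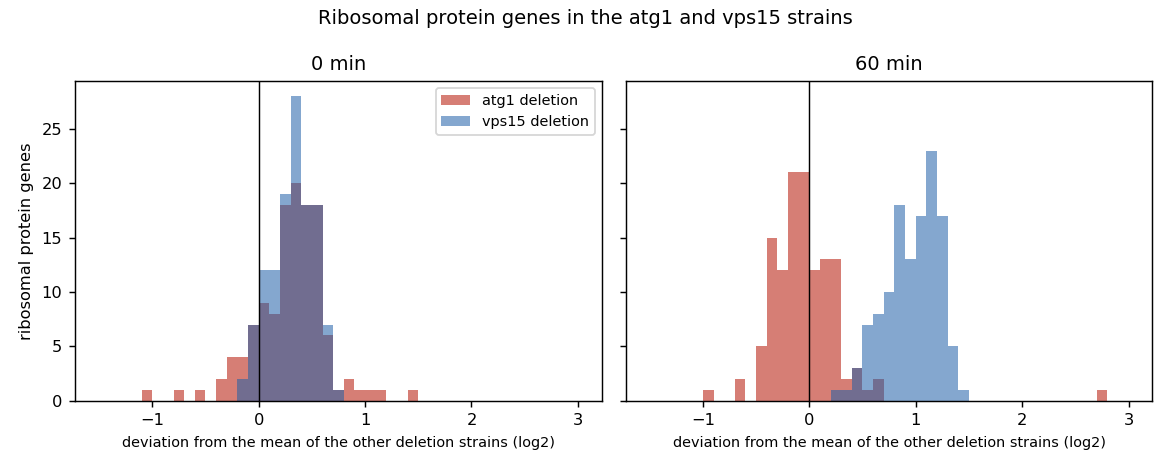
Number of the 124 ribosomal protein genes by deviation from the mean of the other deletion strains (log2, bins of 0.1) at 0 min (left) and 60 min (right), in the atg1 strain (red) and the vps15 strain (blue). The 2 distributions overlap at 0 min, and at 60 min that of vps15 lies about 1 higher.

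The 1 ribosomal protein gene called in atg1 at 60 min was rpp202. This acidic protein gene stood at 1.77 at 0 min and 1.08 at 60 min in atg1, against 0.43 and -0.91 in vps15 and highest levels of 0.96 and -0.16 in the other strains. Its deviations in atg1 were 1.50 (adjusted p = 0.00734) and 2.72 (adjusted p = 0.00022), and the call at 0 min was lost with quantile normalization. Over 803 starvation genes the slope of the changes on the mean changes of the other strains was 0.986 in atg1 and 0.838 in vps15 (the fifth lowest of 62), against a median of 1.01 in the other strains. With that slope removed, an alternative chosen after the data were seen, the median change of the ribosomal protein genes in vps15 was 0.22 above the others, against 0.66 before, and limma called 0 of them in either case (29 at an unadjusted p under 0.05 before).

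The starvation change, 60 minus 0 min within a strain, was called for 240 genes in atg1 (4.87%), 107 with a higher change (2.17%) and 133 with a lower change (2.7%) than in the other strains. In vps15 17 genes were called (0.345%), 16 with a higher change (0.325%) and 1 with a lower one (0.0203%). For the pair 231 were called (4.69%). The 2 strains shared 11 genes, which is 4.58% of the atg1 list and 64.7% of the vps15 list. These were lys3, ser3, vht1, aca1, mmf2, the decarboxylase gene spe2 of polyamine synthesis, dgc1, gor2 and the unnamed genes SPAC17G6.03, SPAP8A3.07C and SPBC8E4.03. For dgc1 the change was 5.39 in atg1 and 5.98 in vps15, against 0.99, 2.40 and 5.21 in the others, and its levels were -1.62 and -2.49 at 0 min and 3.77 and 3.49 at 60 min, against medians of -0.05 and 2.39. Of the 133 genes with a lower change in atg1, 2 were called lower at 60 min and 7 higher at 0 min. Their median deviation was 0.56 at 0 min and -0.48 at 60 min, on opposite sides of the other strains.

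Respiration genes were among the lower changes of atg1. Over 31 of them the median level in the other strains was 0.21 at 0 min and 0.80 at 60 min. The median deviation of the change was -0.84 in atg1 and -0.42 in vps15, the 2 lowest of 62 strains (others -0.37 to 0.74). In atg1 9 were called lower (29% of the list, 2.7% of all genes) and in vps15 limma called 0, with 4 at an unadjusted p under 0.05. The succinate dehydrogenase subunit gene sdh3 changed by -0.28 in atg1 and 0.25 in vps15, against 0.32, 0.90 and 1.79 in the other strains, below every one of them. It was called in atg1 (deviation -1.20, adjusted p = 0.00499) and not in vps15 (-0.67, adjusted p = 0.505). The ATP synthase subunit gene atp16 deviated by -1.27 in atg1 (adjusted p = 0.00443) and the complex III subunit gene qcr8 by -1.14 (adjusted p = 0.0182). At 0 min the list median was 0.49 in atg1 and 0.42 in vps15, the 2 highest of 63 strains. At 60 min it was -0.33 and -0.00. With quantile normalization the median change in atg1 was -0.51 and 2 genes were called, sdh3 and atp16.

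Glycolysis and fermentation genes, a list made after values were seen, gave the same order. At 0 min the median deviation was 0.77 in atg1, the highest of 63 strains, and 0.35 in vps15. In atg1 3 genes of the list were called higher there (0.426% of all genes), and all 3 calls were lost with quantile normalization. At 60 min the median deviation was -0.47 and -0.37 with 0 called by limma (8 and 2 at an unadjusted p under 0.05). Over the 18 genes the median deviation of the change was -1.16 in atg1 and -0.69 in vps15, again the 2 lowest strains (others -0.66 to 0.90), with 9 called lower by limma in atg1 (50% of the list, which was chosen on these values, and 2.7% of all genes) and 0 in vps15, where 6 had an unadjusted p under 0.05. The enolase gene eno101 changed by -3.00 and -1.83, against -2.22, -0.72 and 0.68 in the other strains and 0.16 in the wild type. The phosphoglycerate mutase gene gpm1 changed by -2.97 and -1.92, against -1.91, -0.93 and 0.25. Both were called in atg1 (eno101 -2.28, adjusted p = 0.0177, and gpm1 -2.13, adjusted p = 0.0064) and not in vps15 (adjusted p = 0.669 and 0.572). The pyruvate decarboxylase gene pdc101 changed by -3.37 in atg1, below every other strain, and by -1.56 in vps15, within the others. None of these differences between the 2 strains was called. The alcohol dehydrogenase gene adh1 was called higher at 0 min in atg1 (1.45, adjusted p = 0.0163) and lower in the change (-1.74, adjusted p = 0.0163). At 0 min and again at 60 min 13 genes lay at least 2-fold from the others the same way in atg1 (0.264%) and 23 in vps15 (0.467%), with 3 shared, among them another pyruvate decarboxylase gene, pdc201. Its deviations were 2.30 in atg1 and 1.54 in vps15 at 0 min and 1.80 and 2.28 at 60 min. With quantile normalization 3 glycolysis genes were called lower for the change in atg1, gpm1 and pdc101 among them, and the calls of eno101 and adh1 were lost.

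**Figure D5:**
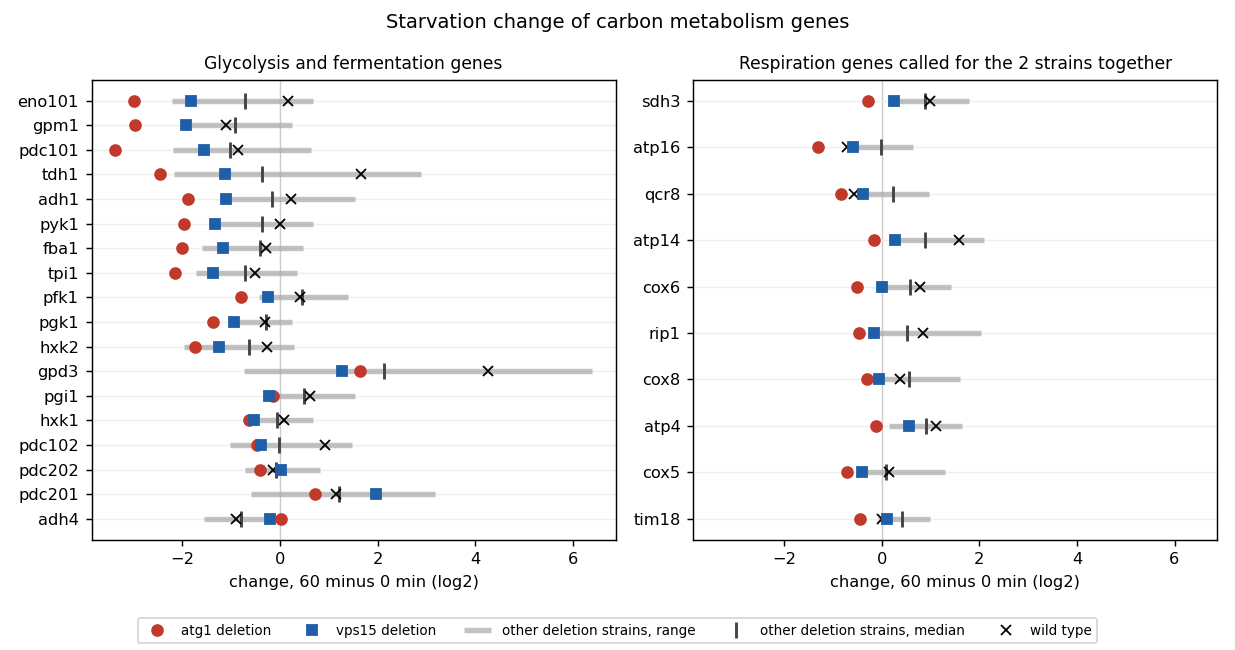
Change from 0 to 60 min (log2) of the 18 glycolysis and fermentation genes (left) and the 10 respiration genes called for both strains together (right). Red circles are the atg1 strain, blue squares the vps15 strain, grey bars the range and ticks the median of the other deletion strains, and crosses the wild type. Red circles lie left of the grey bars in most upper rows on the left and in nearly all rows on the right, and most blue squares lie at the left end of the bars.

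Before starvation the stress response list had its highest median in vps15, with 1 gene called. Over the 23 genes of the stress response list the median deviation at 0 min was 0.89 in vps15, the highest of 63 strains, and 0.35 in atg1 (others -0.73 to 0.68). All 23 lay above the others' mean in vps15 and 20 in atg1. In vps15 1 gene was called higher (4.35% of the list, 0.162% of all genes), srx1, the sulfiredoxin (1.62, against -0.56, 0.07 and 0.95, adjusted p = 0.0185), a call lost with quantile normalization. In atg1 2 were called higher (8.70% of the list, 0.426% of all genes), the catalase gene ctt1 (deviation 1.11, adjusted p = 0.0376) and the ion pump gene cta3 (1.12, adjusted p = 0.0298), both lost with quantile normalization. The largest called deviation above the others in vps15 was that of lsd90, at 2.98 against -0.81, 0.10 and 1.97 (deviation 2.72, adjusted p = 0.0354), a call lost with quantile normalization, and with the strains of doubtful label left out. With quantile normalization the vps15 list median was 0.51. At 60 min the medians were 0.42 in atg1 and 0.45 in vps15, with 0 genes called by limma and 1 and 3 at an unadjusted p under 0.05.

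A few genes set the 2 strains apart in the test of the difference itself. At 0 min 6 genes were called (0.122%), and 220 had an unadjusted p under 0.05. Beside the 2 deleted genes these were SPBC1271.10C, SPCC965.14C, lys7 and an unnamed probe pair. SPBC1271.10C stood at -1.97 in atg1 and -0.05 in vps15, against -0.87, 0.01 and 0.57 in the other strains, a difference of -1.93 (adjusted p = 0.00744). SPCC965.14C stood at -1.52 and 0.74, against -0.85, 0.36 and 0.93 (difference -2.25, adjusted p = 0.0217). The lysine pathway gene lys7 stood at -1.05 and 0.14, against -0.69, -0.05 and 0.44 (difference -1.20, adjusted p = 0.0219). In each of these atg1 lay below every other strain and vps15 did not. With quantile normalization these 3 differences were not called, while SPBC1271.10C kept its call in atg1. The unnamed probe pair, whose 2 probes disagreed in vps15, was also called at 60 min (difference 1.25, adjusted p = 0.0288), where the 2 deleted genes were the other calls (3 in all, 0.0609%, and 388 at an unadjusted p under 0.05). For the change 1 gene was called (0.0203%), SPBC1271.10C.

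Most genes called in 1 strain were thus not shown to differ between the 2. At 60 min 37 genes were called in atg1 and not in vps15, of which 34 deviated the same way in vps15 and 1, atg1 itself, was called for the difference. In turn 83 were called in vps15 and not in atg1, of which 53 deviated the same way in atg1 and 1, vps15 itself, was called for the difference. Ribosomal protein genes made up 27 of the 83. The sugar transporter gene ght3 stood at 3.47 in vps15 and 1.28 in atg1 at 60 min, against -0.85, 0.61 and 4.88 (cyr1) in the others, and was called in vps15 (2.76, adjusted p = 0.0167). The unnamed gene SPBC19C7.04C was higher in vps15 at both times, at 2.38 and 3.89, against 0.07 and 2.39 in atg1 and highest levels of 2.34 and 2.65 in the others (deviations 2.04, adjusted p = 0.0427, and 2.38, adjusted p = 0.00316). Its call at 0 min was lost with quantile normalization and with the strains of doubtful label left out. The ferric reductase gene frp1 changed by 2.15 in atg1 and -2.16 in vps15, against -3.04, -1.85 and 1.12, and was called in atg1 (deviation 3.79, adjusted p = 0.00259), while the difference between the strains was not (4.32, adjusted p = 0.17). The level of frp1 in atg1 was -3.05 at 0 min and -0.89 at 60 min, with deviations of -2.39 and 1.36 that were not called.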

How the data were processed

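Cy5 over Cy3 ratios of 9858 probes on 127 arrays, from RNA of deletion strains against a pool of wild-type RNA, were used as deposited. Per the labels the ratio is the strain over the pool. For their scaling and background correction a method is not given in the sources used here. Here the ratios were turned to log2, 6 zeros were set to missing, each array was centred on its median and the 2 probes of each of 4929 genes were averaged (4791 genes matched the RefSeq gene table). Array medians of the deposited ratio ran from 0.932 to 1.09. The number of arrays limits the precision.

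Each strain, the mean of the pair and their difference were fitted with limma 3.58.1 (R 4.3.3) against the other strains at 0 min, at 60 min and for the change, with Benjamini-Hochberg adjustment over all genes. Tables and plots were made with Python 3.11.15, numpy 2.4.6, pandas 2.3.3 and matplotlib 3.10.9. On simulated data of 4929 genes, 66% (0 min) and 72% (60 min) of genes changed by 1 log2 unit in atg1 were recovered, 74% and 64% in vps15, and 32% and 44% for the difference between the strains. For the change 44% were recovered in atg1, 58% in vps15 and 20% for the difference. False calls for the difference there numbered 3 at 0 min, 4 at 60 min and 8 for the change. They arose beside planted changes of 0.5 to 3 log2 units. The arrays gave 6, 3 and 1 calls, and how many of those are false was not tested. Recovery on the arrays themselves was not tested either.

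Named genes were the deleted genes, the called genes with the largest deviations in each fit, called members of each list and the 3 members that deviated most, and the genes shared by both strains. The strains, lists and tests were chosen with earlier results of these data known. The lists of glycolysis and fermentation and of purine degradation, the removal of the response slope and the comparison with 33 strains of near array numbers were added after values were seen. Alternatives also covered quantile normalization, 1 array series, robust shrinkage, strains of doubtful label left out and a 2-fold minimum.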

Additional observations from a re-analysis of the deposited data

Results flagged for a closer look

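One result stood out by a test of the difference between the 2 strains' starvation changes. SPBC1271.10C, which has no symbol in the RefSeq table, changed by 1.20 from 0 to 60 min in atg1 and by -0.84 in vps15, against -1.98, -0.96 and 0.11 (lowest, median and highest) in the other strains. The change in atg1 exceeded that in vps15 by 2.03 (limma, adjusted p = 0.0355), and it was the 1 gene called for this difference (0.0203% of all tested, 495 at an unadjusted p under 0.05). Its level in atg1 was -1.97 at 0 min and -0.78 at 60 min, and in vps15 it was -0.05 and -0.88, so the strains differed at 0 min and stood close together at 60 min. The call was lost with quantile normalization and against the strains of near array numbers, where limma called 0 genes for this difference.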

How the results depend on the processing

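No paired analysis was possible because the titles carry no replicate numbers, other than the pairing of the 2 times within a strain that the starvation change already uses. Numbers of called genes are given for 0 min, 60 min and the change. With quantile normalization atg1 had 2, 91 and 109, vps15 had 3, 165 and 26, the difference had 2, 18 and 0, and the pair had 3 at 0 min. Of the original calls 2 of 44, 55 of 60 and 100 of 240 remained in atg1 and 3 of 16, 89 of 106 and 13 of 17 in vps15. Under it the vps15 medians were 0.62 for ribosomal proteins at 60 min, 0.51 for stress genes at 0 min and -0.058 for the autophagy machinery at 60 min, and the atg1 median was -0.51 for the respiration change. Genes at least 2-fold away at both times numbered 13 in atg1 and 5 under it, and those shared by both strains numbered 3 and 0. Within 1 array series atg1 had 110 at 0 min and 99 at 60 min, vps15 had 30 at 0 min and 27 for the change, the pair had 158 at 0 min and the difference had 10 at 0 min and 2 for the change. With a 2-fold minimum atg1 had 27 at 0 min and 142 for the change, and the pair had 24, 58 and 84. With both probes past 0.5 the difference had 1 at 60 min. Against the near array numbers atg1 had 81, the pair 120 and the difference 10 at 0 min, and the difference 0 for the change. With the response slope removed vps15 had 32 and the difference 2 for the change. Without the strains of doubtful label vps15 had 182 at 60 min and 27 for the change, and the difference had 4 for the change. Leaving out 1 strain of the pair leaves the other strain alone, so it repeats the counts of the single strains and is no separate check. For part of the 332 named genes 240 values were recomputed in each of several settings, 1200 in all. Of these 18 lost a call, 15 of them with quantile normalization, 57 gained one and 0 changed sign. Some of the values were not called to begin with, so 18 of 1200 is not a share of calls lost. Other named genes lost calls as given above. The cause of these differences was not tested.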

Other observations

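Several gene lists deviated in the starvation change of atg1, for which 2.17% of all genes were called higher and 2.7% lower. The median deviation of 14 iron uptake genes was 0.62 in atg1, the highest of 62 strains, and 0.14 in vps15 (others -0.41 to 0.50), with 2 called higher in atg1, abc3, a vacuolar ABC transporter, and frp1. The median of 24 sterol synthesis genes was -0.54 in atg1, the lowest of 62, and -0.20 in vps15 (others -0.30 to 0.52), with 2 called lower in atg1, erg31 and sre1, the sterol-sensing transcription factor. The median of 28 proteasome genes was -0.37 in atg1, also the lowest, and -0.23 in vps15 (others -0.33 to 0.35), with 4 called lower in atg1 (mts4, pre4, pre8, rpt5). Of 12 purine synthesis genes ade4, ade8 and gua1 were called lower in atg1 (median -0.26 in atg1 and 0.15 in vps15). With quantile normalization the calls of erg31, pre4, rpt5 and gua1 were lost. The copper transporter gene ctr4 was lower in atg1 at 0 min (deviation -1.93, adjusted p = 0.0273, limma), a call lost with quantile normalization.

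Other lists showed few calls. For 61 ribosome biogenesis genes the median at 60 min was 0.06 in both strains, and limma called none there, with 3 in atg1 and 0 in vps15 at an unadjusted p under 0.05. For 18 chaperone genes the medians at 60 min were -0.22 in atg1 and -0.25 in vps15, and for 23 mating and early meiosis genes they were 0.12 and 0.06. The M cell marker genes, 6 in number, had medians of 0.53 and 0.09 at 60 min (others -0.80 to 3.34), and the 3 P cell marker genes had 0.08 and -0.18. None of these 4 lists held a gene called by limma at 60 min in either strain.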
